A study of Mus musculus with 4 samples.

Results

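Neurons that fire switch on a set of genes within minutes to hours, and the 10 described here are members of that set that act at synapses, in signalling or in transcription: Arc, Npas4, Nr4a1, Nr4a2, Nr4a3, Bdnf, Nptx2, Ier2, Dusp1 and Dusp6. They were chosen by gene symbol with earlier results of these data known, so the counts below are not independent of the choice. Every probe of the array whose platform annotation gives 1 of these 10 symbols was taken. This came to 21 of 45281 probes and 10 of the 19057 genes with a probe of their own. RNA from mouse brain was read on 4 Illumina bead arrays, 2 from Atm-/- mice and 2 from Atm+/+ mice, all on a mixed 129J x C57BL/6 background. Atm is the kinase that signals broken DNA, and the series title names ataxia-telangiectasia, the human disease caused by its loss. The labels name no treatment, and the Atm allele, the age and sex of the mice, the dissected part of the brain and whether the arrays of a genotype came from separate animals are not stated in the labels used. The p-values below therefore measure the spread between these arrays, which may be technical.

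Calcium that enters an active neuron, together with the ERK branch of the MAP kinases, activates the transcription factors CREB and SRF at promoters that are already poised. CREB binds the cAMP response element (CRE), and SRF binds the CArG box. The first products include transcription factors such as NPAS4 and the orphan nuclear receptors NR4A1 (Nur77), NR4A2 (Nurr1) and NR4A3 (Nor1), and effectors such as ARC, which controls the removal of AMPA-type glutamate receptors from synapses. BDNF and the neuronal pentraxin NPTX2 are secreted and act on synapses, while the phosphatases DUSP1 and DUSP6 switch MAP kinases off again.

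The promoter windows of the members were searched because CRE motifs are known to take part in the induction of such genes. A RefSeq table of GRCm38.p6 gave 13 windows for 7 of the 10 genes, each running from 250 bases before a transcription start to 50 bases from it. Arc, Nptx2 and Ier2 have no entry in it. Both strands were searched for 5 motifs: the CRE TGACGTCA, its half-site TGACG, the AP-1 site TGANTCA, the NR4A response element AAAGGTCA and the CArG box. A whole CRE contains 2 half-sites on opposite strands. The windows with a CRE or a half-site follow, 5′ to 3′ on the gene's strand, with those matches in capitals.
Npas4 (chr19:4989922-4990221, minus strand): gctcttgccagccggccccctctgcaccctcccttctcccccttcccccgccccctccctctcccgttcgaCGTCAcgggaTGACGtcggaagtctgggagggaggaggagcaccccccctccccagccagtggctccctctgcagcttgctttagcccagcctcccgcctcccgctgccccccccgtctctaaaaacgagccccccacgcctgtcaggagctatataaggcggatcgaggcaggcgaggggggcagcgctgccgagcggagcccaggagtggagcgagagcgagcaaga
Nr4a1 (chr15:101266596-101266895, plus strand): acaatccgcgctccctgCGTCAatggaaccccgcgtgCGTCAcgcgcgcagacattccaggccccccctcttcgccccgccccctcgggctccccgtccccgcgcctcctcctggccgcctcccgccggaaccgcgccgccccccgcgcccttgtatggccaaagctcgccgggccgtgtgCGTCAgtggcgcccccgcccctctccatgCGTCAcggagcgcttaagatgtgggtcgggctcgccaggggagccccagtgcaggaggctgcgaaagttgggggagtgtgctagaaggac
Nr4a2 (chr2:57123954-57124253, minus strand): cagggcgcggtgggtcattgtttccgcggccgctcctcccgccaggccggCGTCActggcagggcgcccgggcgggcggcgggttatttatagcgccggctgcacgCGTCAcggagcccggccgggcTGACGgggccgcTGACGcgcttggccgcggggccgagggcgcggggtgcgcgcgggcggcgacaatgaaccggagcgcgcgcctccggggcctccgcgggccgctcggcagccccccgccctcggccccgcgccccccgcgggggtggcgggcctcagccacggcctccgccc
Nr4a3 (chr4:48045055-48045354, plus strand): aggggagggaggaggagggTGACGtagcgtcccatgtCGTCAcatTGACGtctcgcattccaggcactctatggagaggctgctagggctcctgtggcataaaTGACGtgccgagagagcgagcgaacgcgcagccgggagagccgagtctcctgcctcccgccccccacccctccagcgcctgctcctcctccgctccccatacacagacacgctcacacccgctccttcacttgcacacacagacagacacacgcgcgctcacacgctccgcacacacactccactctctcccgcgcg
Bdnf, start 3 of 7 (chr2:109692186-109692485, plus strand): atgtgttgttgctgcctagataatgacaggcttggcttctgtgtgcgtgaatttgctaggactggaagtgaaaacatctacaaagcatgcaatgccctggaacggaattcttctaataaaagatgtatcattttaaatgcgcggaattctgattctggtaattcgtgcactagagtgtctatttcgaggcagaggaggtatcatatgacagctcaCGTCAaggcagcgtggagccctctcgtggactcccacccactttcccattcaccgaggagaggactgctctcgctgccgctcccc
Dusp1 (chr17:26508423-26508722, minus strand): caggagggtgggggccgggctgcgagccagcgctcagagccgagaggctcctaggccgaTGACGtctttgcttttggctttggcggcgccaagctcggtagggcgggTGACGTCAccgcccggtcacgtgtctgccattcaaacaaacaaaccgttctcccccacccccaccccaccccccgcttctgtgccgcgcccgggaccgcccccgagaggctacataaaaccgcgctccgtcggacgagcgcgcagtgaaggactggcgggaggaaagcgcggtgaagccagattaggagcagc

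The half-site was found in 6 of the 13 windows, against 20.8% of all 32851 windows of the same table. These lay in 6 of the 7 genes, a count that the share per window cannot be set against, as Bdnf had 7 windows. Nr4a1, Nr4a2 and Nr4a3 each held 4 half-sites. In Nr4a1 the nearest began 40 bases before the start, and in Nr4a2 and Nr4a3 at 111 and 147 bases. Npas4 held 2, at 179 and 169 bases before the start on opposite strands. Dusp1 held the single whole CRE among the members, 143 bases before its start, a motif present in 1.79% of all windows, and a further half-site at 191 bases. Of the 7 start sites of Bdnf, which its alternative first exons use, 1 had a half-site, 35 bases upstream. Dusp6 had none. The CArG box (1.63% of all windows) and the NR4A element (1.51%) were in 0 member windows, and the AP-1 site (7.81%) was in 1 of the Bdnf windows. The CArG box was searched only as CC, then 6 letters of A or T, then GG, so looser forms were not counted. The motif holds a CG, and the 5 windows with it outside Bdnf had a GC content of 64.7% to 81.7%, beside 57.3% in the Dusp6 window. A match is a stretch of letters, and these data hold no measurement of binding.

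**Figure D1:**
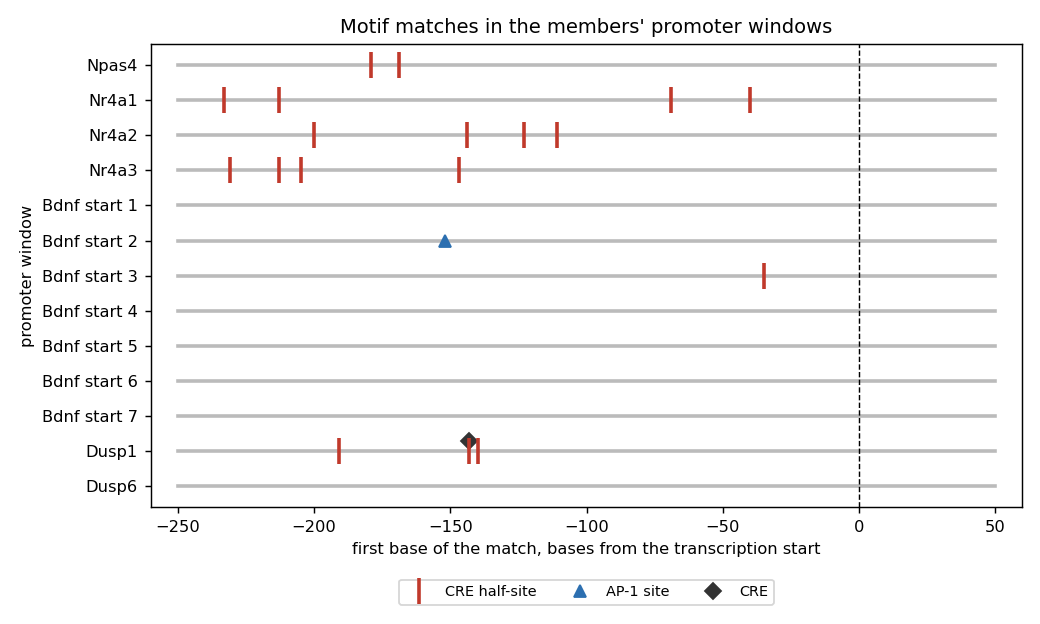
Positions of motif matches in 13 promoter windows of 7 member genes, in bases from the transcription start (dashed line); each grey line is 1 window. Half-sites lie in single windows of Npas4, Dusp1 and the 3 Nr4a genes, in 1 of 7 Bdnf windows and not in that of Dusp6.

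The arrays themselves set limits on every comparison. The targeted gene was lower past the threshold at 2 of its 3 tested probes, both at background on the Atm-/- arrays. ILMN_1258206 was at least 4.46-fold lower (adjusted p = 0.00224) and ILMN_2783896 at least 1.77-fold lower (adjusted p = 0.0205), while ILMN_2492491 differed by 0.61 (adjusted p = 0.308). Without knowing the disrupted exons, none of the probes can be placed inside or outside the disrupted stretch. Replicates differed by over 2-fold at 0.737% of tested probes in Atm-/- and at 11.3% in Atm+/+. Markers of brain regions moved with genotype. Past the threshold, 7.5% of all 12231 tested genes were higher in Atm-/- and 6.89% lower. All 4 tested of 6 cortical and hippocampal excitatory neuron markers were higher past the threshold, with a summed linear signal of 10408 and 11270 in Atm-/- against 1105 and 2586 in Atm+/+, and so were all 4 tested of 6 striatal markers (19932 and 20324 against 2913 and 4847). The Atm+/+ sum of cortical markers is mostly Slc17a7, which cerebellar granule cells also express and which read 9.73 and 11.21 on those arrays. Of 5 tested inhibitory interneuron markers 3 rose, Dlx1 at least 26.6-fold, Vip by 3.84 and Sst by 1.25 (adjusted p up to 0.333 with either Atm-/- array left out), and 0 fell, 0 also at an unadjusted p under 0.05. Gad1 differed by -0.53 (adjusted p = 0.212) and Gad2 by -0.40 (adjusted p = 0.388), and the list's sum was 18956 and 20942 in Atm-/- against 15450 and 18894 in Atm+/+. All 5 tested of 6 cerebellar granule cell markers were lower, at 1952 and 2467 in Atm-/- against 30386 and 42681 in Atm+/+, as were both tested Purkinje cell markers and all 4 tested of 6 brainstem and spinal cord markers. On both Atm-/- arrays Pcp2, Lhx1, Gabra6, Zic2, Cbln3, Hoxa5, Hoxb5, Slc6a2 and Dbh, which mark these regions, were at background. On both Atm+/+ arrays Tbr1, Emx1, Drd1 and Dlx1 were. Testing required signal above background on at least 2 of the 4 arrays, so the tested genes among these could differ in 1 direction only. They include both tested Purkinje cell markers and all 4 tested brainstem and spinal cord markers. With 1 Atm-/- array left out 2 of the cortical markers and 2 of the striatal ones stayed past the threshold, while all the cerebellar granule and Purkinje cell calls held. The part of these markers in the members' differences was not tested, and the genotype and the brain regions sampled cannot be told apart. In bulk RNA, fewer cells of a type and less RNA per cell cannot be told apart either.

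Levels are log2 signals as the authors processed them, and a probe was tested if it lay above a background level of 5.64 on at least 2 of the 4 arrays. Levels of different probes are not compared, because probes bind with different strength. Of the 21 member probes, 13 passed this filter, for 8 of the 10 genes. Nr4a3 (3 probes) and Ier2 (1 probe) were not tested. A probe past the threshold has a limma adjusted p under 0.05, and "rose" is used of such probes alone. In Atm-/- brain 10 of the 13 tested probes rose, where 6.98% of all 22385 tested probes did, and 0 fell, where 6.06% of all did. At an unadjusted p under 0.05 also 0 were lower, where 6712 of all 22385 tested probes passed that limit in either direction. By the brightest probe of each gene 7 of 8 tested member genes rose and 0 fell, where 7.5% of 12231 genes rose and 6.89% fell. For 3 of the 13 probes, of which 1 rose, only the Atm-/- arrays lay above background, so these could enter the test through a higher Atm-/- level alone. The same holds, in either direction, for listed genes at background on both arrays of 1 genotype. Among the 8 member probes above background on all 4 arrays, 7 rose. In a fit on such probes alone 7 rose as well, and 2422 of the 17025 probes fitted passed in either direction.

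**Figure D2:**
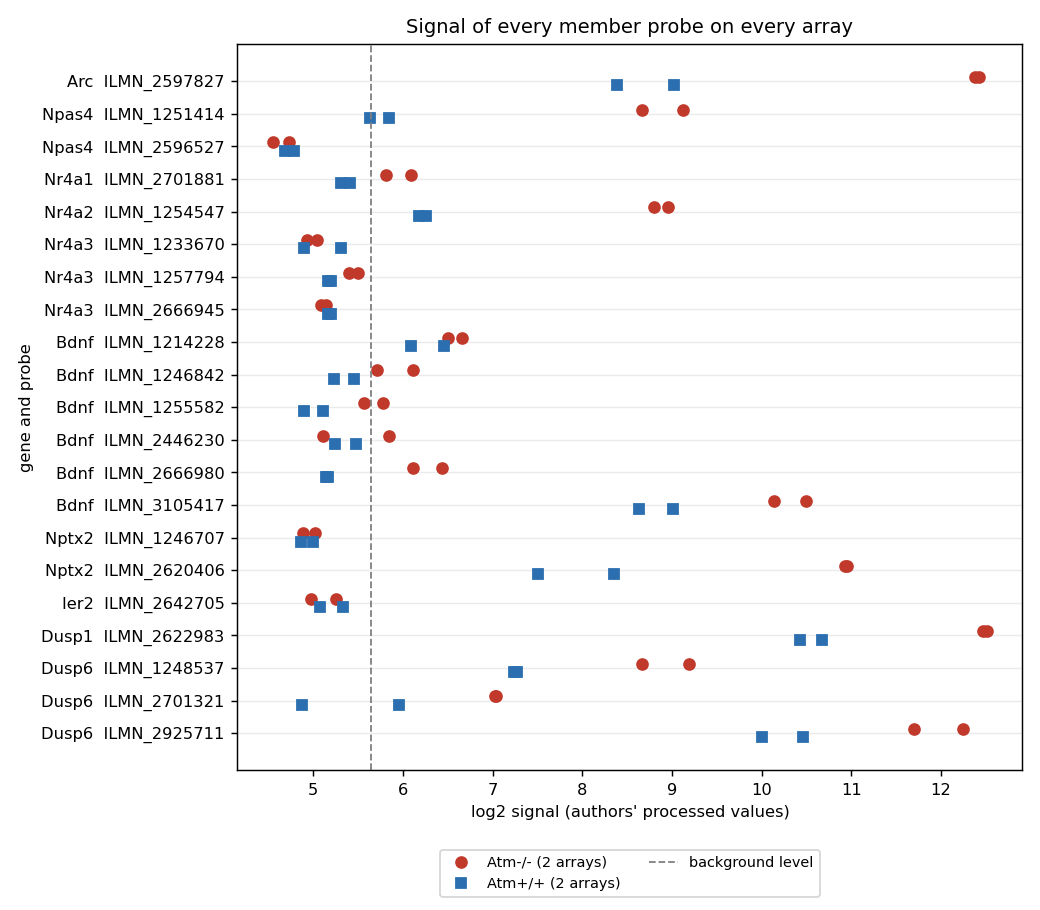
Log2 signal of all 21 member probes on each array, with Atm-/- (circles) above Atm+/+ (squares) in each row and the background level of 5.64 as a dashed line. Arc, Nptx2 and Dusp1 show nearly coincident Atm-/- points well to the right of both Atm+/+ points, while Nr4a3 and Ier2 stay left of the line in both genotypes.

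Arc had the largest fitted difference among the members, in a ranking that was not tested. Its product forms virus-like capsids as well as acting at the synapse, and the gene is widely used to mark recently active neurons. Its probe ILMN_2597827 read 12.38 and 12.43 on the Atm-/- arrays, against 8.39 and 9.03 on the Atm+/+ arrays. The Atm-/- arrays lay 0.04 apart and the Atm+/+ arrays 0.64 apart, while the lower Atm-/- array was 3.35 above the higher Atm+/+ array. Arc rose by 3.70 ± 0.30 (SE, n = 2 per genotype), a 12.96-fold difference with an adjusted p of 0.000775. This change exceeded that of 99.6% of the 12231 tested genes.

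Nptx2, also known as Narp, is secreted at excitatory synapses and clusters AMPA receptors there. At ILMN_2620406 it read 10.93 and 10.95 in Atm-/- and 7.503 and 8.353 in Atm+/+. The genotypes did not overlap, and the gap of 0.85 between the Atm+/+ arrays was among the wider of the members. Nptx2 rose by 3.02 ± 0.33, or 8.09-fold (adjusted p = 0.00224). Its other probe, ILMN_1246707, lay between 4.87 and 5.02 on all 4 arrays, which is background, and was not tested. In both Arc and Nptx2 the higher Atm+/+ array was replicate 2, as it was at 7 of the 13 tested member probes.

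Npas4 encodes a transcription factor that is induced in neurons by calcium influx and regulates inhibitory synapses. ILMN_1251414 read 9.12 and 8.67 in Atm-/-, against 5.64 and 5.85 in Atm+/+. One Atm+/+ array was at background and the other just above it, so the fold depends on a level near the limit of what the array resolves. Npas4 rose by 3.15 ± 0.28, or 8.90-fold (adjusted p = 0.000996). The other Npas4 probe, ILMN_2596527, lay between 4.55 and 4.79 on the 4 arrays and was not tested.

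The 3 NR4A receptors differed in what the arrays could measure. They bind DNA without a known natural ligand in their pocket, and NR4A2 is known for its part in making midbrain dopamine neurons, though cortical and hippocampal neurons express it as well. Nr4a2 read 8.80 and 8.96 in Atm-/- and 6.18 and 6.26 in Atm+/+, with replicate gaps of 0.16 and 0.08. It rose by 2.65 ± 0.25, or 6.29-fold (adjusted p = 0.00123). Of the midbrain dopamine neuron markers, Slc6a3 and Pitx3 were at background on all 4 arrays and not tested. Th fell by 1.32 (adjusted p = 0.0426) and Slc18a2 at least 1.96-fold (adjusted p = 0.0247). Slc18a2 was at background on both Atm-/- arrays, so the filter let it come out lower only. Both calls were lost with either Atm-/- array left out, with adjusted p up to 0.443 for Th and 0.206 for Slc18a2. Of the claustrum and deep cortical layer markers, where Nr4a2 is also known, Gnb4 differed by 0.69 (adjusted p = 0.135), Oprk1 by -0.04 (adjusted p = 0.947), Nxph4 fell by 2.62 (adjusted p = 0.0205, 0.0766 without Atm-/- replicate 2) and Cplx3 was not tested.

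Nr4a1 lay close to background. Its probe read 6.09 and 5.81 in Atm-/-, against 5.41 and 5.31 in Atm+/+, both of them at background. The filter admitted this probe through its Atm-/- arrays alone, which by itself puts them above the Atm+/+ arrays. The fitted difference of 0.59 ± 0.26, taken against background signal, did not pass the threshold (adjusted p = 0.18, 95% interval -0.02 to 1.19). For Nr4a3 the probe ILMN_1257794 read 5.50 and 5.40 in Atm-/- and 5.16 and 5.20 in Atm+/+, all below the background level. ILMN_2666945 ran the other way, with 5.09 and 5.14 in Atm-/- and 5.16 and 5.20 in Atm+/+. ILMN_1233670 lay between 4.90 and 5.31, with the genotypes overlapping. No change of Nr4a3 was detectable with these probes, which differs from showing that it did not change.

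Bdnf encodes the secreted ligand of the receptor TrkB, and its alternative first exons join a common coding exon, so its probes may read different transcripts. Of its 6 probes 4 were tested and 2 rose. ILMN_3105417 was the brightest, with 10.14 and 10.50 in Atm-/-, against 8.63 and 9.01 in Atm+/+. The genotypes were 1.13 apart at their nearest arrays and replicates 0.36 and 0.38 apart. It rose by 1.496 ± 0.281, or 2.82-fold (adjusted p = 0.0164). ILMN_2666980 read 6.44 and 6.11 in Atm-/- and was at background in Atm+/+, with 5.16 and 5.14, and rose at least 1.55-fold (adjusted p = 0.0335). ILMN_1214228, above background on all 4 arrays, read 6.50 and 6.66 in Atm-/- and 6.45 and 6.09 in Atm+/+. Its difference of 0.31 ± 0.27 did not pass (adjusted p = 0.478, 95% interval -0.32 to 0.94). ILMN_1246842 differed by 0.57 ± 0.27 (adjusted p = 0.212), with both Atm+/+ arrays at background. The filter admitted ILMN_2666980 and ILMN_1246842 through their Atm-/- arrays alone, which by itself puts these above the Atm+/+ arrays. The 2 untested Bdnf probes lay between 4.90 and 5.84. Whether the Bdnf probes differ from each other in their change was not tested, and where each lies in the transcripts is not known from the annotation used.

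**Figure D3:**
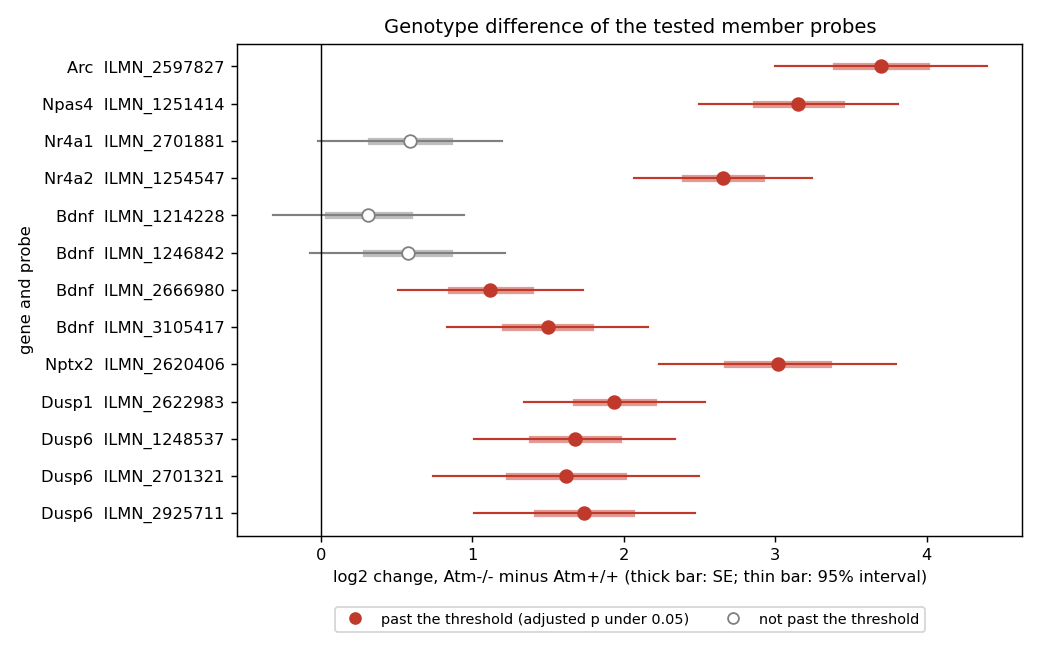
Log2 change of the 13 tested member probes, Atm-/- minus Atm+/+, with the moderated standard error as a thick bar and the 95% interval as a thin bar. The 10 filled probes are past the threshold, led by Arc at 3.70, and the intervals of Nr4a1 and of a pair of Bdnf probes cross 0.

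The members that act on MAP kinases are the phosphatase genes Dusp1 and Dusp6. DUSP1 removes phosphates from p38, JNK and ERK in the nucleus and is also induced by stress and glucocorticoids. Dusp1 read 12.51 and 12.47 in Atm-/- and 10.67 and 10.43 in Atm+/+, with 1.80 between the nearest arrays of the 2 genotypes. The difference of 1.94 ± 0.25 was 3.83-fold (adjusted p = 0.00457). DUSP6 acts in the cytoplasm, mainly on ERK, and its gene is a feedback target of that kinase. The 3 Dusp6 probes gave similar changes at different brightness. ILMN_2925711 read 11.70 and 12.25 in Atm-/- against 10.001 and 10.466 in Atm+/+, a rise of 1.74 ± 0.31 (adjusted p = 0.0136). ILMN_1248537 read 8.67 and 9.20 in Atm-/- against 7.28 and 7.24 in Atm+/+, a rise of 1.68 ± 0.28 (adjusted p = 0.0111). ILMN_2701321 read 7.03 and 7.04 in Atm-/- against 4.88 and 5.95 in Atm+/+. Its Atm+/+ gap of 1.07, with 1 of the arrays at background, was as wide as the 1.07 between the nearest arrays of the genotypes, and its rise of 1.62 ± 0.37 had an adjusted p of 0.033.

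Ier2, a nuclear protein gene that growth factors and activity induce, had 1 probe. It read 4.97 and 5.25 in Atm-/- and 5.33 and 5.07 in Atm+/+, all at background and overlapping. It gives no measurement of Ier2 in either genotype.

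The arrays of the genotypes were compared directly at the 8 member probes above background on all 4 arrays, where the filter cannot fix their order. At all 8 both Atm-/- arrays lay above both Atm+/+ arrays, as they did at 29.2% of the 17025 probes of the array that met the same condition. At 7 the lower Atm-/- array was over 2-fold above the higher Atm+/+ array, against 4.55% of those probes. At the same number, 7, this gap was wider than the gap between the replicates of either genotype, against 14.7%. Bdnf ILMN_1214228 was the exception in both counts. The calls of Arc, Npas4, Nr4a2 and Nptx2 held when any 1 array was left out, with adjusted p of at most 0.00222, 0.00607, 0.012 and 0.00823. Those of Bdnf, Dusp1 and Dusp6 were lost whichever of the Atm-/- arrays was left out. The highest adjusted p was then 0.0578 for Dusp1, 0.168 for the brightest Dusp6 probe, 0.22 for the brightest Bdnf probe and 0.408 for Bdnf ILMN_2666980. By the brightest probes the order of change was Arc, Npas4, Nptx2, Nr4a2, Dusp1, Dusp6, Bdnf and Nr4a1. Neighbours in this order had overlapping 95% intervals (for Arc 2.995 to 4.397 and for Npas4 2.50 to 3.81), and differences between genes were not tested.

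**Figure D4:**
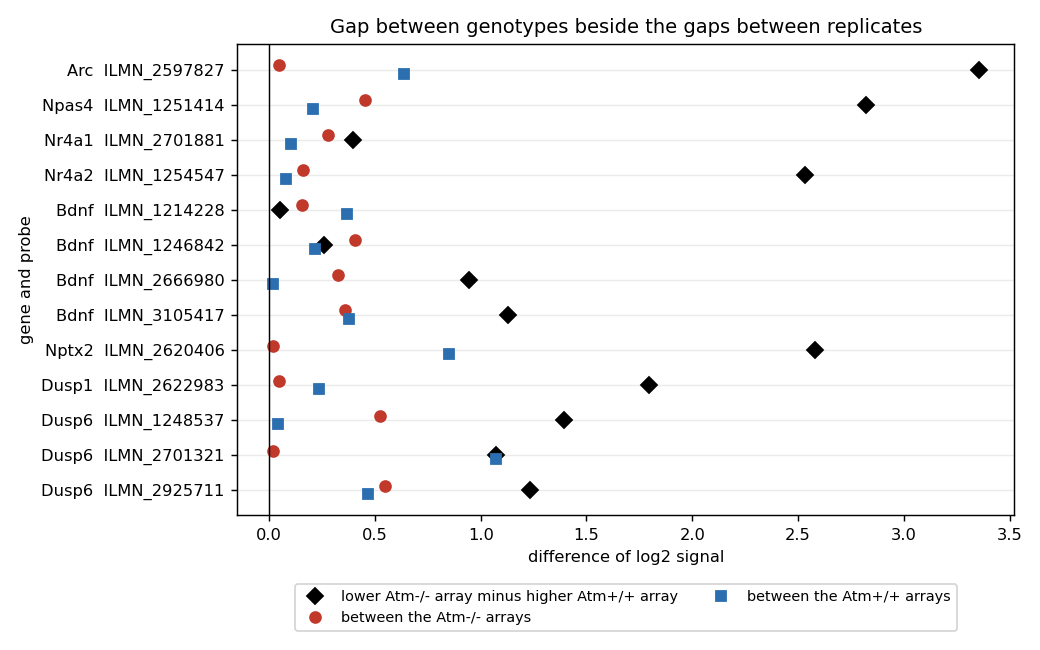
For each tested member probe, the log2 gap from the higher Atm+/+ array to the lower Atm-/- array (diamonds) beside the gaps between the Atm-/- arrays (circles) and between the Atm+/+ arrays (squares). At Arc the diamond stands at 3.35, far right of the Atm+/+ gap of 0.64, and at Dusp6 ILMN_2701321 it coincides with the Atm+/+ gap of 1.07.

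Other genes induced by activity were followed in lists of transcription factors and of effectors. Beside the counts of these and the later lists stand 7.5% of 12231 tested genes that rose and 6.89% that fell. Of 14 tested genes in a list of 17 other activity-induced transcription factor genes 9 rose and 0 fell (0 also at an unadjusted p under 0.05), with a median change of 3.04 beside -0.01 over all tested genes. More of them rose with an Atm+/+ array left out than with an Atm-/- array left out, and more probes of the whole array passed then too. Egr3, at 12.41 and 12.97 in Atm-/- against 6.40 and 6.69 in Atm+/+, Egr2, Egr1 and Fosb, which was at background on both Atm+/+ arrays, had the smallest p. Jun at 0.50 (adjusted p = 0.249), Crem at 0.61 (adjusted p = 0.319), Atf3 at 0.23 (adjusted p = 0.581), Bhlhe40 at 1.04 (adjusted p = 0.0557) and Klf10 at -0.22 (adjusted p = 0.654) did not pass; these names were picked with the values in view.

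Of 14 tested genes in a list of 22 other activity-induced effector genes 3 rose and 0 fell, with a median of 0.79. At an unadjusted p under 0.05 these counts were 9 and 1, where 6712 of all 22385 tested probes passed that limit in either direction. How many rose depended on the array left out, with more without an Atm+/+ array, as over the whole array. Plk2, a kinase that weakens overactive synapses, read 10.82 and 10.94 in Atm-/- against 8.75 and 7.60 in Atm+/+ and rose by 2.71 ± 0.39 (adjusted p = 0.0064). Homer1, a scaffold of metabotropic glutamate receptors with a short activity-induced form, rose by 1.89 ± 0.31 (adjusted p = 0.0107, or 0.131 without Atm-/- replicate 2). Trib1, a pseudokinase gene at background on both Atm+/+ arrays, rose at least 1.73-fold (adjusted p = 0.039, up to 0.418 with either Atm-/- array left out). Plk3, the last of the 4 genes of smallest p, differed by 1.52 ± 0.40 (adjusted p = 0.0502).

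Relatives of Dusp1 and Dusp6 were followed together with ERK feedback inhibitors. Among 9 tested genes of 13 other MAP kinase phosphatases and ERK feedback inhibitors 1 rose and 1 fell. Over all 12231 tested genes 7.5% rose and 6.89% fell. The median of the list was -0.06. On 3 arrays more rose with an Atm+/+ array left out than with an Atm-/- array left out. Dusp10, a phosphatase of p38 and JNK, read 6.95 and 6.74 in Atm-/- against 8.89 and 10.12 in Atm+/+ and fell by 2.66 ± 0.41 (adjusted p = 0.00812). Dusp4, a nuclear phosphatase, rose by 1.06 ± 0.28 at an adjusted p of 0.05 after rounding, and lost the call with either Atm-/- array left out (up to 0.429). Dusp8 differed by 0.98 ± 0.27 (adjusted p = 0.0562) and Dusp16 by -0.58 ± 0.30 (adjusted p = 0.245). Of 7 tested kinases of the MAP kinase cascades, from a list of 13, 2 rose and 0 fell (0 also at an unadjusted p under 0.05), with a median of 0.86. They were the JNK genes Mapk8, at 1.29 ± 0.26, and Mapk10, at 1.11 ± 0.27, and both calls were lost with either Atm-/- array left out. More kinases rose without Atm+/+ replicate 1, when more probes of the whole array passed too.

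Upstream genes of the calcium, CREB, SRF and MEF2 pathway were measured in a list of 16, of which 10 were tested. Of these 4 rose and 0 fell (0 also at an unadjusted p under 0.05), with a median of 0.25. Mef2c, a transcription factor abundant in cortical neurons, read 12.98 and 13.07 in Atm-/- against 9.39 and 9.14 in Atm+/+. It rose by 3.76 ± 0.26 (adjusted p = 0.000525). Camk2a, the calcium-activated kinase of forebrain excitatory neurons, read 13.60 and 13.21 in Atm-/- against 9.72 and 9.69 in Atm+/+ and rose by 3.70 ± 0.27 (adjusted p = 0.000543). Camk2b rose by 2.02 and Srf by 2.01, calls that were lost without Atm-/- replicate 2 (adjusted p = 0.0597 for Camk2b and 0.0735 for Srf). Of the other genes, 3 singled out with their values in view did not pass. Creb1 differed by -0.56 ± 0.27 (adjusted p = 0.218), Crtc1 by 0.02 ± 0.27 (adjusted p = 0.968) and Camk4 by 0.19 ± 0.26 (adjusted p = 0.672).

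Receptors and binding partners of the member proteins were followed in a further list. Of 16 tested genes in a list of 18, 3 rose and 1 fell. Over all 12231 tested genes 7.5% rose and 6.89% fell. The median of the list was 0.60. On 3 arrays more rose and more fell with an Atm+/+ array left out than with an Atm-/- array left out, as over the whole array. Ntrk2, which encodes the BDNF receptor TrkB, differed by -0.16 ± 0.34 (adjusted p = 0.799). Nptx1 and Nptxr, pentraxins that assemble with NPTX2, differed by -0.69 ± 0.28 (adjusted p = 0.147) and 0.33 ± 0.27 (adjusted p = 0.46). Arnt2, the dimer partner of NPAS4 in neurons, differed by 1.15 ± 0.44 (adjusted p = 0.134). Rxrg, a retinoid X receptor abundant in the striatum, averaged 8.09 in Atm-/- against 5.73 in Atm+/+ and rose by 2.36 ± 0.29 (adjusted p = 0.00327). RXR proteins dimerise with NR4A1 and NR4A2. Among the AMPA receptor subunits, which ARC and NPTX2 act on, Gria2 rose by 1.61 and Gria3 by 1.14, Gria4 fell by 1.67 and Gria1 differed by 0.93 ± 0.28 (adjusted p = 0.0702). The calls of Gria2, Gria3 and Gria4 were lost with either Atm-/- array left out, with adjusted p up to 0.217, 0.36 and 0.214 in that order.

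**Figure D5:**
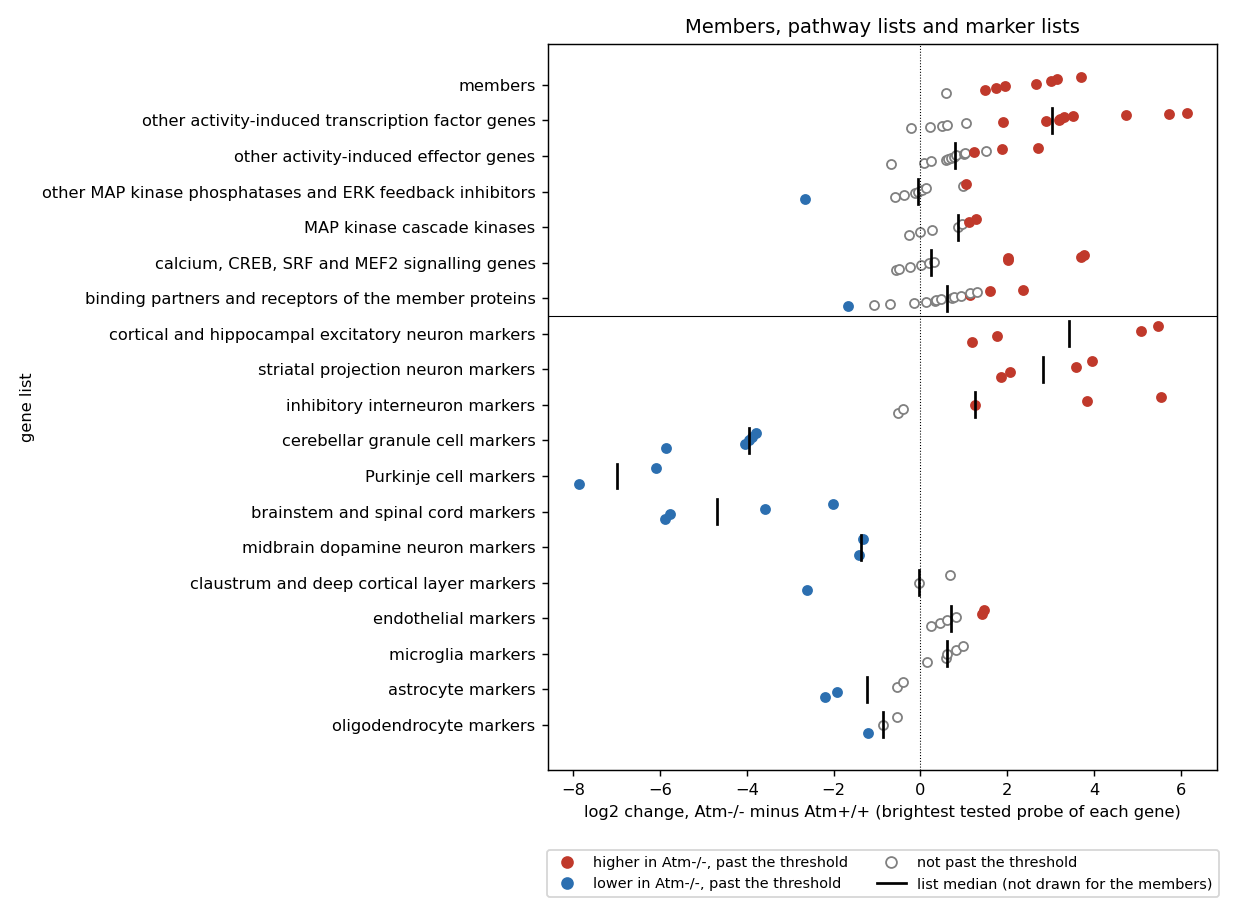
Log2 change, Atm-/- minus Atm+/+, of each tested gene of the members, 6 pathway lists and 12 marker lists (below the horizontal line), with filled points past the threshold and a black bar at the median of each list other than the members. All tested members and all tested cortical and striatal markers lie to the right of 0, and the cerebellar, brainstem and midbrain dopamine markers to the left.

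Cell types outside neurons were followed because Dusp1, Nr4a1 and Ier2 are also induced in vessels and immune cells. Of 6 tested endothelial markers 2 rose (Esam and Tek) and 0 fell, 0 also at an unadjusted p under 0.05, with a summed signal of 6152 and 6467 in Atm-/- against 2889 and 3966 in Atm+/+. Of 5 tested microglia markers 0 passed in either direction, with 3 higher and 0 lower at an unadjusted p under 0.05, and their sum was 2636 and 2940 in Atm-/- against 1799 and 2140 in Atm+/+. Over the whole array 6712 of 22385 tested probes had an unadjusted p under 0.05. Past the threshold, 7.5% of 12231 tested genes rose and 6.89% fell. Of 4 tested astrocyte markers 2 fell (Gfap and Aqp4), and of 3 tested oligodendrocyte markers 1 fell (Mobp). None of these 5 calls held under both fits that omit an Atm-/- array. With either Atm+/+ array omitted more endothelial and microglia markers rose, and more probes of the whole array passed. The part of these cells in the members' levels was not tested.

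The genes whose pattern over the 4 arrays was most like that of Arc were Wnt10a, the long noncoding RNA gene Miat, Akap5, which anchors protein kinase A at synapses, Rprm and Ctxn1. Likeness was the Euclidean distance between log2 values after each probe's mean was taken off, and these genes lay at 0.15 to 0.28. Nptx2 and Npas4 were the nearest members, at 0.70 and 0.72. Nearest to Nr4a1 were Niban1, Rhot2, Guf1, Trp53rkb and Cops7b, at 0.03 to 0.06, none of which passed the threshold (adjusted p 0.148 to 0.182). With 4 arrays, such a distance mostly ranks genes by the size of the genotype difference.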

How the data were processed

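The authors deposited processed signals for 4 arrays, and the log2 scale was inferred from a range of 4.47 to 16.1. Sorted values differed by at most 0.0792 between arrays, as after quantile normalization, so a shift of most genes cannot be seen. The software behind them is not given in the sources used here. Another table of 8 value columns was not used, because its column names match no single sample, so the planned fit on those signals was not run.

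Genotypes came from the labels. The background level was the mode of all values (5.05) plus 3 SD of the values under it (0.195). Differences were fitted with limma 3.58.1 (lmFit, eBayes; R 4.3.3), without covariates, on 22385 probes, with Benjamini-Hochberg adjustment over all of them; the procedure was tested on simulated data. The fit had 2 residual and 5.22 prior degrees of freedom. A bound ("at least") sets the brighter mean against the background level. The platform annotation names 34885 probes with 1 symbol, 18 with several and 10378 with none, and all 10 member symbols match the RefSeq gene table. A gene with several probes stands in lists by the brightest tested one. All members, the genes of smallest p in each list (up to 4), direct partners and the 5 most alike genes are named. Members and lists were chosen with earlier results of these data known. The number of arrays limits all precision.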

Additional observations from a re-analysis of the deposited data

How the results depend on the processing

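Both Atm-/- arrays lay above both Atm+/+ arrays at every tested member probe, so a refit could hardly reverse a direction. Nr4a1 and Bdnf ILMN_1214228 and ILMN_1246842 had no call to lose, and all their refits count as kept. Across 149 refits of single member probes, 136 kept their side of the threshold and 13 lost the call. Of the 13, 12 came from leaving out an Atm-/- array (Bdnf, Dusp1 and Dusp6), and the other was Dusp6 ILMN_2701321 without the filter on dim probes. With 1 array left out, 4 to 10 member probes and 4 to 7 member genes rose, the lowest with either Atm-/- array left out, when the Atm+/+ pair alone sets the residual spread and the lone array is assumed to vary like it. Over the whole array 665 (without Atm-/- replicate 2) to 8322 (without Atm+/+ replicate 1) probes passed, against 2919 with all 4. The labels give both genotypes replicates 1 and 2 without saying that a number marks anything shared, and same-numbered arrays deviated with a correlation of 0.06. With the replicate block 4575 probes passed, and 10 member probes rose as before. Other background levels, the intensity trend, array weights and repeated quantile normalization left 10 member probes higher. Requiring signal on all 4 arrays left 7 of 8. Averaging a gene's probes left 7 genes. In each of these settings 0 member probes fell. Signal near background limits Npas4, Nr4a1, Nr4a3, Ier2, the dim Bdnf probes and Dusp6 ILMN_2701321.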
